A study of Mus musculus with 8 samples.

Results

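*Lcn2* and 9 acute-phase or reactive glia genes (*Serpina3n*, *Gfap*, *Vim*, *Cebpb*, *Cebpd*, *S100a10*, *Cd44*, *Osmr* and *Timp1*) were followed in bulk RNA-seq of the mouse ventral hippocampus. *Lcn2* was picked because its counts were higher after corticosterone in these same libraries, so its values are given as a description without a test. The other 9 genes were picked by function. All 10 were found among the 50686 genes of the count table, and 9 of the 10 passed the filter on low counts, as did 16018 genes in all; *Timp1* did not. The libraries came from male C57B6/J mice, 8 weeks old. Of these, 4 were injected with vehicle (replicates 1 to 4) and 4 with 3 mg/kg corticosterone (replicates 5 to 8), the main glucocorticoid of rodents, and all were killed 3 h later. Each library is 1 mouse, and since the whole tissue was used, fewer cells of a type and less RNA per cell cannot be told apart.

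Reactive gliosis is the change of shape and gene expression that astrocytes and microglia undergo after injury, infection or inflammation. Cytokines of the interleukin 6 family signal through their receptors to STAT3, and C/EBP transcription factors are switched on along with it, as they are in the acute-phase response of the liver. The targets include secreted proteins such as lipocalin 2, which binds bacterial siderophores and so keeps iron from bacteria, as well as protease inhibitors and intermediate filament proteins. Glucocorticoids are known both to dampen cytokine genes and to raise some acute-phase genes.

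Between 17492159 and 19931987 reads per library were counted on genes. Several libraries stood apart from the others of their group. In corticosterone replicate 5, 86.3% of reads fell on genes, against 84.6% to 84.8% in replicates 6 to 8, and vehicle replicate 4 had a share of ambiguous reads of 1.40% against 1.64% to 1.67% in replicates 1 to 3. Shares also differed between the groups. Reads without a unique alignment made up 0.070% to 0.111% after vehicle and 0.042% to 0.054% after corticosterone. Reads not aligned were 6.35% to 7.13% after vehicle, 6.45% in corticosterone replicate 5 and 7.77% to 8.09% in replicates 6 to 8. The part of these shares in the gene values was not tested. The treatment was visible in *Fkbp5*, a chaperone gene induced by glucocorticoids, with 1709 to 2373 normalized counts after vehicle and 3177 to 3510 after corticosterone. Normalized counts are reads scaled to the same effective library size. The 8 neuron markers examined summed to between 123845 and 138452 normalized counts in every library. The 7 oligodendrocyte markers summed to 104351 in vehicle replicate 1 and to 59526 to 77724 in vehicle replicates 2 to 4. After corticosterone they summed to 58138 to 71888.5, with 0 of 7 log2 fold changes above 0 (median -0.35) and 0 called. The part of this difference in the values of other genes was not tested.

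*Lcn2* (ENSMUSG00000026822) lies on the minus strand of chromosome 2 of GRCm38, from 32384633 to 32388252. The vehicle libraries held 19, 9, 8 and 6 reads of *Lcn2*, and the corticosterone libraries 29, 57, 76 and 53, in the order of their replicate numbers. After normalization, these were 18.7, 8.82, 7.83 and 5.92 normalized counts after vehicle and 28.3, 61.8, 79.9 and 51.6 after corticosterone. All 4 corticosterone libraries were above all 4 vehicle libraries, the nearest pair being corticosterone replicate 5 and vehicle replicate 1, which differed by 1.51-fold. Of all genes tested, 1.99% had every corticosterone library above every vehicle library; *Lcn2* was chosen from this contrast, so nothing is read from the share. The exact Poisson intervals (95%) of this pair, 18.9 to 40.6 and 11.2 to 29.1 normalized counts, overlapped. These intervals cover counting error only.

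**Figure D1:**
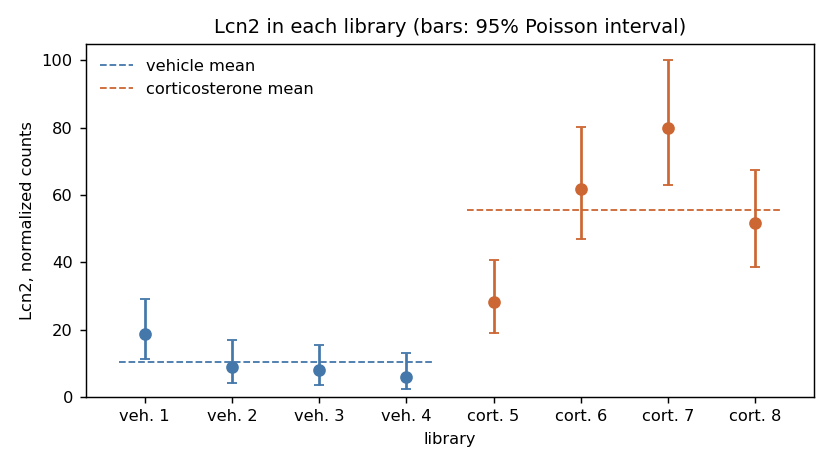
Normalized counts of *Lcn2* in each library (points), with 95% Poisson intervals of the read counts (bars) and the group means (dashed lines). The 4 vehicle libraries lie between 5.92 and 18.7 and the 4 corticosterone libraries between 28.3 and 79.9; vehicle replicate 1 and corticosterone replicate 5 are the nearest to each other.

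*Lcn2* averaged 10.3 ± 5.70 normalized counts in the vehicle group and 55.4 ± 21.5 in the corticosterone group (SD, n = 4 mice each), a ratio of 5.38. The fitted log2 fold change was 2.41 (standard error, SE, 0.384). *Lcn2* passed the filter on low counts through the corticosterone group, since 3 of the 4 vehicle libraries had under 10 reads. Both groups were spread widely for their level: the coefficient of variation was 55.3% after vehicle and 38.9% after corticosterone. With 1 mouse left out, the log2 fold change lay between 2.18 (without corticosterone replicate 7) and 2.85 (without vehicle replicate 1), and it was 3.07 without vehicle replicate 1 and corticosterone replicate 5.

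Several cell types at the borders of the brain or in blood also make lipocalin 2, so their markers are given beside it. Neutrophils store it in their granules. Of the 10 neutrophil markers, *Camp*, *Retnlg* and *Elane* had 0 reads in every library, and the list summed to 72.4 to 122 normalized counts after vehicle and 88.3 to 100.4 after corticosterone, nearly all of it from *Csf3r*, which microglia also express. Choroid plexus markers summed to 486 to 1390 after vehicle and 690 to 1430 after corticosterone, with 4 of 5 tested log2 fold changes above 0 (median 0.66) and 0 called. Their highest values were in corticosterone replicate 5 and vehicle replicate 1, the libraries with the lowest and highest *Lcn2* of their groups. Markers of meningeal and perivascular fibroblasts summed to 1885 to 3566 and 2806 to 5035, with 7 of 7 log2 fold changes above 0 and 0 called. The sum of the 8 endothelial markers was 2628 to 2795 after vehicle and 2240 to 2551 after corticosterone, and that of the 8 microglial markers 7305 to 7531 and 5798 to 7275. These sums did not overlap between the groups, while singly 0 of the 8 endothelial and 2 of the 8 microglial markers were without overlap, beside 3.66% of all genes. The part of any of these cell types in the *Lcn2* counts was not tested.

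The sequence before the start of *Lcn2* is shown because the C/EBP and STAT3 factors and the glucocorticoid receptor, which are measured or acted on here, bind DNA. It was taken from the RefSeq promoter windows of GRCm38.p6, which hold 250 bases before and 50 after a start and were found for 8 of the 10 genes; *Cebpd* and *S100a10* were not matched. The stretch printed is chr2:32387798-32387989 on the minus strand, 192 bases that end just before the main transcript start in GENCODE M21, at 32387797, and so lie within the span of the gene, which has a longer transcript as well. Capitals mark a match to the C/EBP motif TTNNGNAA, searched on both strands. The next line is the stretch chr12:104406458-104406707 on the plus strand, the 250 bases before the RefSeq start of *Serpina3n*, where capitals mark matches to C/EBP and to the palindromic glucocorticoid response element, searched as GNACA and TGTNC with 3 bases between them.
Lcn2: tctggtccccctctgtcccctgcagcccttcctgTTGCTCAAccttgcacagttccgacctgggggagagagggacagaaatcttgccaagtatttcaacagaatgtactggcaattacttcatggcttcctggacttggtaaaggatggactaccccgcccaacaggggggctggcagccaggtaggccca
Serpina3n: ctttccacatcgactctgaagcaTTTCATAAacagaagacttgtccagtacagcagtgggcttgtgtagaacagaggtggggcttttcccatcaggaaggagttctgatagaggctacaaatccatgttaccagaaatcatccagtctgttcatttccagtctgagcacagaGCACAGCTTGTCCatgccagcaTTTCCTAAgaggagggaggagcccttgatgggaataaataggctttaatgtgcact

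The *Lcn2* window held 1 C/EBP match, GRCm38 chr2:32387948-32387955, and this motif was found in 40.7% of all 32851 windows of the same length. It held no match to the glucocorticoid response element, to its 6-base half-site AGAACA, to the STAT motif TTCNNNGAA or to the kappaB consensus. The *Serpina3n* window held 1 match to the palindromic element, chr12:104406630-104406642, as did 0.475% of all windows. It also held 2 C/EBP matches and 1 half-site, which 19.0% of windows had. In the *Gfap* window, 1 STAT match (8.3% of windows) overlapped the start, and the *Vim* window had 1 kappaB match (4.51% of windows) and 1 C/EBP match. *Timp1* had 1 C/EBP match, and *Cebpb*, *Cd44* and *Osmr* had no match to any of these motifs. A match says only that these letters are present, and the lack of a match says nothing of sites outside the window.

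The 5 genes whose log2 CPM (counts scaled to library size) followed *Lcn2* most closely over the 8 libraries were *Elovl4* (Pearson's r = 0.98), *Hacd2* (0.98), *Rin2* (0.97), *Errfi1* (0.96) and *Fkbp5* (0.96). These values contain the difference between the groups by which *Lcn2* was chosen. *Elovl4* and *Hacd2* encode enzymes that make very long chain fatty acids, and *Errfi1* an inhibitor of the epidermal growth factor receptor. *Elovl4* had 1188 to 1246 normalized counts after vehicle and 1250 to 1321 after corticosterone, at a log2 fold change of 0.10. Among vehicle libraries, replicate 1 was highest in *Lcn2*, in *Fkbp5* (2373 against at most 1983) and in *Rin2* (864 against at most 678). Once the mean of each group was subtracted, the highest r was that of *Pmaip1* (0.98), a proapoptotic gene, followed by *Ptpn3*, *Dclre1b* and *Zmynd19*, and 0 of these 4 genes were among the first 5. Of the 8 other tested reactive glia genes, *Vim* had the highest r over the 8 libraries (0.74) and *Gfap* the lowest (-0.48). With the group means subtracted, *Serpina3n* had the highest (0.60) and *Cd44* the lowest (-0.58), and those of *Vim* and *Gfap* were 0.36 and -0.26.

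**Figure D2:**
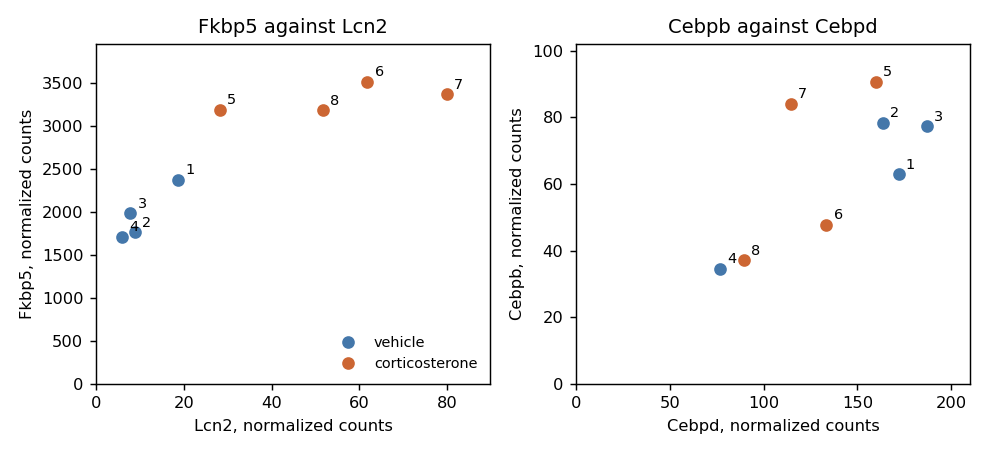
Normalized counts of *Fkbp5* against *Lcn2* (left) and of *Cebpb* against *Cebpd* (right), 1 point per library with its replicate number. On the left, vehicle replicate 1 is the vehicle library nearest to the corticosterone libraries on both axes; on the right, vehicle replicate 4 and corticosterone replicate 8 are low for both genes.

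None of the other reactive glia genes passed the test for differential expression. With the quasi-likelihood test of edgeR and Benjamini-Hochberg adjustment over all genes, 0 of the 8 other tested genes passed an adjusted p value of 0.05, where 0.00624% of all genes did. At an unadjusted p value under 0.05, 1 of the 8, *Vim*, was found with edgeR, where 9.03% of all genes were, and 1 with DESeq2. DESeq2 called 0 of the 8 and 0.374% of all genes. Without corticosterone replicate 5, edgeR called 10.2% of all genes and still 0 of the 8. Log2 fold changes were above 0 in 5 and below 0 in 3 of these genes, with a median of 0.059, beside 0.0036 over all genes tested. The groups overlapped in all 8, while 3.66% of all genes did not overlap.

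**Figure D3:**
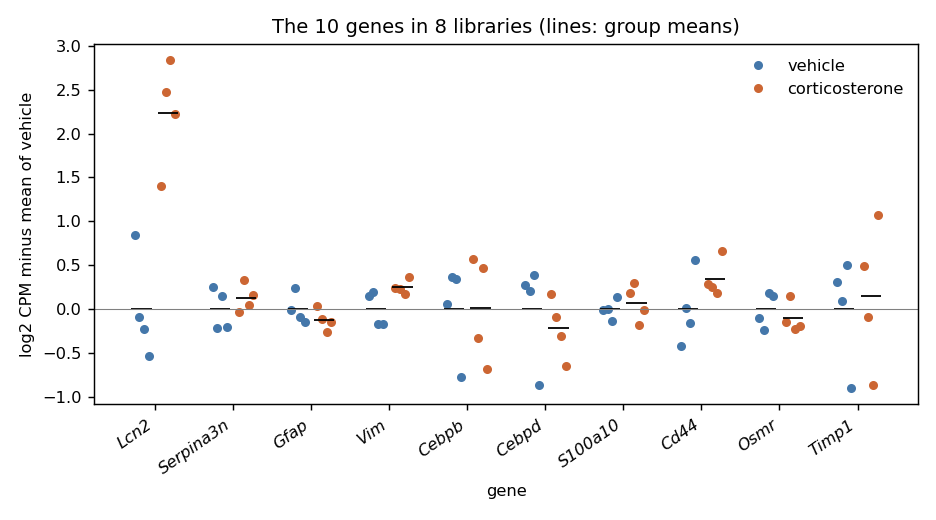
Log2 CPM of the 10 genes in each library, as the difference from the mean of the vehicle libraries; points are libraries and lines are group means. In *Lcn2* alone of these 10 genes, every corticosterone library lies above every vehicle library.

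Among the acute-phase genes, *Serpina3n* (ENSMUSG00000021091, chromosome 12 from 104406729 to 104414329) encodes a secreted serine protease inhibitor that is a common marker of reactive astrocytes. It had 1367, 987, 1274 and 997 normalized counts after vehicle and 1119, 1442, 1179 and 1280 after corticosterone. The groups overlapped, and vehicle replicate 1 exceeded 3 of the 4 corticosterone libraries. Its log2 fold change was 0.12 (SE 0.116, 95% interval -0.13 to 0.37, adjusted p = 0.701 from edgeR), with 0.045 without corticosterone replicate 6 and 0.21 without vehicle replicate 1. *Serpina3n* belongs to a cluster of closely related genes, so reads may be split among them. Of the 11 clade A3 serpins, 3 were tested and 0 called, and *Serpina3n* was by far the most abundant, with *Serpina3g* next at 46.6 ± 12.9 and 65.7 ± 12.3 normalized counts (SD, n = 4 each).

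*Gfap* (ENSMUSG00000020932, chromosome 11 from 102887336 to 102900912) encodes the main intermediate filament protein of astrocytes. It had 6604, 7899, 6253 and 6021 normalized counts after vehicle and 6810, 6176, 5561 and 6031 after corticosterone. Vehicle replicate 2 was the highest and corticosterone replicate 7 the lowest of all libraries, and the groups overlapped. The log2 fold change was -0.12 (SE 0.092, 95% interval -0.32 to 0.075, adjusted p = 0.628 from edgeR) and lay between -0.18 and -0.034 with 1 library left out, the latter without vehicle replicate 2.

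*Vim* (ENSMUSG00000026728, chromosome 2 from 13573927 to 13582826) encodes vimentin, the filament protein of immature and reactive astrocytes and of vascular and meningeal cells. Its normalized counts were 678, 697, 541 and 542 after vehicle and 721, 714, 690.5 and 790 after corticosterone. Only corticosterone replicate 7 fell within the vehicle range. The log2 fold change was 0.25 (SE 0.10, 95% interval 0.030 to 0.46), with an adjusted p of 0.532 from edgeR and an exact permutation p of 0.0571 (two-sided), where 0.0286 is the smallest that 4 against 4 allow. Over the 15 alternatives the adjusted p of *Vim* lay between 0.0941 and 0.919. The 7 fibroblast markers given above all had log2 fold changes above 0, as did 6 of 6 ependymal markers (median 0.52) and 6 of 7 markers of pericytes and smooth muscle (median 0.10), while 0 of 8 endothelial markers did (median -0.15), with 0 called in these lists. The part of these cells in the values of *Vim* was not tested.

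Of the 14 intermediate filament genes, all were tested and 0 called, with a median log2 fold change of -0.0086. *Prph*, peripherin of peripheral neurons, had 11.7 to 34.6 normalized counts after vehicle and 35.8 to 55.6 after corticosterone (log2 fold change 1.12, adjusted p = 0.407 from edgeR). *Synm*, which encodes synemin, a partner of vimentin, had 901 to 1078 and 1144 to 1290 (log2 fold change 0.26, adjusted p = 0.439). *Nes*, the nestin gene of neural stem cells, had 119 ± 18.6 and 113 ± 14.9 (SD, n = 4 each). *Plec*, which encodes the filament linker plectin, had the smallest p value of those with a negative value (log2 fold change -0.22, adjusted p = 0.571).

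*Cebpb* (ENSMUSG00000056501, chromosome 2 from 167688915 to 167690418) and *Cebpd* (ENSMUSG00000071637, chromosome 16 from 15887286 to 15891031) encode C/EBP beta and delta, the transcription factors of the acute-phase response. *Cebpb* had 62.9, 78.4, 77.3 and 34.6 normalized counts after vehicle and 90.7, 47.7, 84.1 and 37.0 after corticosterone. The highest library was 2.27 times the lowest after vehicle and 2.45 times after corticosterone. Corticosterone replicates 5 and 7 lay above every vehicle library and the other corticosterone libraries within the vehicle range. *Cebpd* had 172, 164, 187 and 77.0 after vehicle and 160, 133, 115 and 89.6 after corticosterone, with vehicle replicate 4 below every other library. Both genes were thus lowest in vehicle replicate 4 and corticosterone replicate 8.

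The log2 fold change of *Cebpb* was 0.04 (SE 0.304, adjusted p = 0.969 from edgeR) and turned to -0.17 without corticosterone replicate 5 or without vehicle replicate 4. That of *Cebpd* was -0.27 (SE 0.244, 95% interval -0.80 to 0.26, adjusted p = 0.678), with -0.49 without vehicle replicate 4, -0.42 without corticosterone replicate 5, -0.15 without vehicle replicate 3 and -0.14 without corticosterone replicate 8. Exons of *Cebpb* share 312 bases with *Tmem189* and those of *Cebpd* 562 bases with *Spidr*, both on the opposite strand, and the strand setting of the counting is not given in the sources used here. Vehicle replicate 4 also had fewer ambiguous reads than the other vehicle libraries, and corticosterone replicate 5, the highest of its group in both genes, more (1.48% against 1.25% to 1.28%). The part of this in their spread was not tested. Of the 7 C/EBP family genes, 6 were tested and 0 called; *Cebpa* had 247 ± 56.2 and 283 ± 48.2 normalized counts, *Cebpg* 609 ± 48.1 and 659 ± 59.9, and *Cebpz* 842 ± 57.6 and 907 ± 79.3 (SD, n = 4 each).

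*Osmr* (ENSMUSG00000022146, chromosome 15 from 6813577 to 6874969) encodes the receptor for oncostatin M, which pairs with the shared subunit gp130. It had 109, 98.9, 133 and 130.3 normalized counts after vehicle and 105, 130.2, 99.8 and 102 after corticosterone. Corticosterone replicate 6 was close to the highest vehicle libraries, and the others to the lowest. The log2 fold change was -0.11 (SE 0.146, 95% interval -0.42 to 0.21, adjusted p = 0.779 from edgeR), with -0.20 without corticosterone replicate 6 and -0.047 without vehicle replicate 3.

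In the interleukin 6 family and STAT3 list, 15 of 22 genes were tested and 0 called. Among the ligand genes, *Osm* had a mean of 0.980 normalized counts after vehicle and 1.54 after corticosterone, and the means of the other ligand genes of the list ran from 1.47 (*Cntf*) to 16.7 (*Ctf1*) after vehicle and from 0.731 to 18.3 after corticosterone. Receptor genes had more counts, with 1601 ± 91.7 and 1596 ± 41.3 (SD, n = 4 each) for *Il6st*, which encodes gp130. *Lifr*, the receptor for leukemia inhibitory factor, had 926 ± 133 and 1139 ± 93.0 (log2 fold change 0.30, adjusted p = 0.482 from edgeR). *Il6ra*, the binding subunit for interleukin 6, had 165 to 192 after vehicle and 218 to 257 after corticosterone, without overlap (log2 fold change 0.44, adjusted p = 0.279). *Stat3* had 804 to 881 and 676 to 764, also without overlap but in the opposite direction (log2 fold change -0.19, adjusted p = 0.510). *Socs3*, the feedback inhibitor that STAT3 induces, had 12.5 ± 3.01 and 14.3 ± 3.64.

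*Cd44* (ENSMUSG00000005087, chromosome 2 from 102811141 to 102901665) encodes the hyaluronan receptor of reactive astrocytes and leukocytes. Its normalized counts were 42.2, 57.8, 50.9 and 84.9 after vehicle and 70.2, 68.3, 65.2 and 91.6 after corticosterone. Vehicle replicate 4 exceeded 3 of the 4 corticosterone libraries, while the other vehicle libraries were below all of them. The log2 fold change was 0.33 (SE 0.215, 95% interval -0.14 to 0.79, adjusted p = 0.598 from edgeR), with 0.55 without vehicle replicate 4, 0.19 without vehicle replicate 1 and 0.20 without corticosterone replicate 8. In the list around CD44, 14 of 15 genes were tested and 0 called. *Spp1*, which encodes osteopontin, a CD44 ligand, had 32.6 to 86.2 and 94.6 to 167 normalized counts (log2 fold change 1.31, adjusted p = 0.239). *Ezr*, which encodes ezrin, a linker to actin, had 954 ± 118 and 1156 ± 59.3 (log2 fold change 0.28, adjusted p = 0.463), and its relative *Msn* 440 ± 19.9 and 414 ± 29.8. *Bcan*, the proteoglycan brevican, had the smallest p value among the negative ones (log2 fold change -0.23, adjusted p = 0.545).

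*S100a10* (ENSMUSG00000041959, chromosome 3 from 93555080 to 93564643) encodes p11, which binds annexin A2 and carries channels and receptors to the membrane. It is often listed with the A2 type of reactive astrocytes, described after ischaemia. It had 351, 356, 324 and 390 normalized counts after vehicle and 402, 437, 313 and 352 after corticosterone. Corticosterone replicate 7 was the lowest and replicate 6 the highest of all libraries. The log2 fold change was 0.08 (SE 0.113, 95% interval -0.16 to 0.33, adjusted p = 0.783 from edgeR), with 0.0031 without corticosterone replicate 6 and 0.16 without corticosterone replicate 7. Its partner *Anxa2* had 101 ± 11.8 and 142 ± 32.9 (SD, n = 4 each; log2 fold change 0.49, adjusted p = 0.499).

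Of the 15 S100 and annexin A2 genes, 9 were tested and 0 called. *S100a16* had 1005 to 1087 normalized counts after vehicle and 714 to 846 after corticosterone, without overlap (log2 fold change -0.39, adjusted p = 0.196 from edgeR). *Ahnak*, a large scaffold protein that binds the p11 and annexin A2 complex, had 241 to 353 and 404 to 410 (log2 fold change 0.42, adjusted p = 0.386). The astrocyte gene *S100b* had 2075 ± 76.9 and 1945 ± 95.5, and *S100a6* 136 ± 20.1 and 138 ± 12.3 (SD, n = 4 each).

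*Timp1* (ENSMUSG00000001131, chromosome X from 20870166 to 20874735) encodes a secreted inhibitor of matrix metalloproteinases. It had 5, 4, 6 and 1 reads after vehicle and 6, 3, 1 and 10 after corticosterone. These counts are too few to show a difference short of a very large one, and the exact permutation p was 0.771. Fitted with no filter on low counts, where edgeR called 0.287% of genes, its log2 fold change was 0.35, with an SE of 0.661 and an edgeR adjusted p of 0.869. The other inhibitors were far more abundant, with 9245 ± 1378 and 10530 ± 776 normalized counts for *Timp2* (SD, n = 4 each), 1909 ± 131 and 2206 ± 122 for *Timp3* (adjusted p = 0.499), and 767 ± 52.5 and 798 ± 40.0 for *Timp4*. Of the 20 genes for these inhibitors and metalloproteinases, 15 were tested and 0 called; *Adamts4*, an aggrecanase, had 279 to 404 and 200 to 319 (log2 fold change -0.61, adjusted p = 0.332).

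Per length of exon, in RPKM, the order after vehicle was *Gfap* (82.9 ± 10.4, SD, n = 4), *Serpina3n* (29.3 ± 4.89), *S100a10* (15.3 ± 1.17), *Vim* (6.76 ± 0.933), *Cebpb* (2.20 ± 0.708), *Cebpd* (2.09 ± 0.690), *Osmr* (0.508 ± 0.0713), *Cd44* (0.454 ± 0.142), *Timp1* (0.231 ± 0.124) and *Lcn2* (0.205 ± 0.113). The levels of *Cebpb* and *Cebpd*, those of *Osmr* and *Cd44*, and those of *Timp1* and *Lcn2* differed by less than their spread between libraries. After corticosterone, *Lcn2* was at 1.10 ± 0.429 RPKM, between *Cebpd* (1.73 ± 0.414) and *Cd44* (0.569 ± 0.0927), and the other 9 genes kept their order except that *Cd44* came before *Osmr* (0.472 ± 0.0605). *Gfap* was at 404 times the level of *Lcn2* after vehicle and at 69.0 times after corticosterone.

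**Figure D4:**
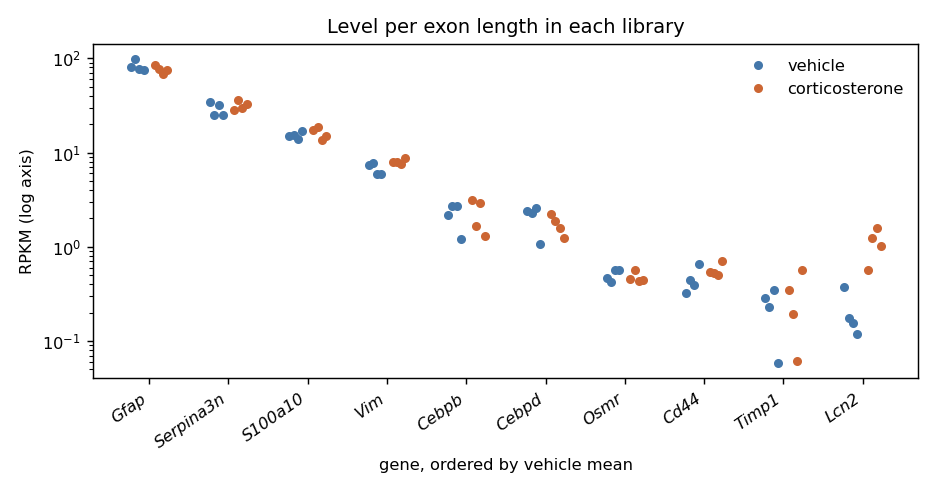
Level of each gene per exon length (RPKM, log axis) in every library, ordered by the vehicle mean. *Lcn2*, at 0.205 after vehicle and close to *Timp1* at 0.231, is at 1.10 after corticosterone, still far below *Gfap* at 76.1.

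The published signatures of reactive astrocytes were then described without *Lcn2*. Of the 12 other pan-reactive genes, which rise in astrocytes after both inflammation and ischaemia, 9 were tested and 0 called, with 4 log2 fold changes above 0 and a median of -0.04. *Cp*, the copper carrier ceruloplasmin, had 190.0 ± 21.6 and 267 ± 65.9 normalized counts (SD, n = 4 each; log2 fold change 0.49, adjusted p = 0.499 from edgeR), and *Aspg*, an asparaginase, 37.6 ± 9.40 and 24.9 ± 6.62 (log2 fold change -0.59, adjusted p = 0.545). *S1pr3*, a sphingosine-1-phosphate receptor, had 137 ± 12.2 and 133 ± 16.6, and the small heat shock gene *Hspb1* 29.4 ± 6.53 and 25.6 ± 8.46. *Steap4*, a metalloreductase, and the chemokine gene *Cxcl10* did not pass the filter, with means of 3.19 and 3.55 and of 0.492 and 0.263. Of 8 astrocyte markers, 0 were called by edgeR and 4 had log2 fold changes above 0 (median 0.0013), with *Aqp4* at -0.07 and *Aldh1l1* at 0.11. The groups did not overlap in 2 of the 8, beside 3.66% of all genes, the connexin genes *Gjb6* (0.44, adjusted p = 0.196) and *Gja1* (-0.15, adjusted p = 0.545), which are named after their values were seen.

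Of the 12 genes of the A1 type, described after inflammation, 11 were tested and 1 was called, *Fkbp5*, the only call among all genes tested (0.00624%), at a log2 fold change of 0.76, an SE of 0.097 and an edgeR adjusted p of 0.0481. This call was lost in 7 of the 15 alternatives, with at least 10 counts in every sample (adjusted p = 0.053) and, at 0.142 to 0.331, without vehicle replicate 2, 3 or 4 or corticosterone replicate 6, 7 or 8. In these 7 fits its log2 fold change was still 0.69 to 0.77. The median of this list was 0.17, and *Psmb8*, a subunit of the immunoproteasome, had the smallest p value among the lower ones (log2 fold change -0.62, adjusted p = 0.545). Of the 12 genes of the A2 type, 8 were tested and 0 called, all 8 with log2 fold changes above 0 and a median of 0.18. Of these 8, 1 was without overlap, beside 3.66% of all genes. It was *Emp1*, a membrane protein, with 17.6 to 22.7 normalized counts after vehicle and 23.4 to 67.2 after corticosterone (log2 fold change 1.0, adjusted p = 0.466). The nearest values of its groups, 22.7 and 23.4, were thus close.

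The acute-phase list without *Lcn2* held 19 genes, of which 6 were tested and 0 called. All 6 log2 fold changes were above 0, with a median of 0.36 beside 0.0036 over all genes tested. *Lbp*, which encodes the lipopolysaccharide binding protein, had 42.2, 27.4, 27.4 and 25.7 normalized counts after vehicle and 94.5, 45.6, 48.3 and 78.9 after corticosterone. Its groups did not overlap, vehicle replicate 1 again being the nearest (log2 fold change 1.13, standard error 0.270, adjusted p = 0.270 from edgeR). The metallothionein genes *Mt1* and *Mt2*, named here after their values were seen, had log2 fold changes of 0.28 and 0.44 (adjusted p = 0.510 and 0.466). Of the 19 genes, *Orm1*, *Saa2* and *Apcs* had 0 reads in all 8 libraries. The genes that were not tested had group means of at most 4.91 normalized counts. Their means went in both directions, as in *Hp* (2.70 after vehicle and 1.24 after corticosterone) and *Saa1* (0.492 and 1.28).

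Of the 14 genes for lipocalin 2 receptors and iron handling, all were tested and 0 called, with a median log2 fold change of -0.04. *Slc22a17*, a receptor for lipocalin 2, had 13198 ± 2460 and 11811 ± 2872 normalized counts (SD, n = 4 each; log2 fold change -0.16, adjusted p = 0.706 from edgeR). The endocytic receptor *Lrp2* had 24.6 ± 6.10 and 29.4 ± 5.22, and *Mmp9*, the metalloproteinase that lipocalin 2 binds, 36.3 ± 4.57 and 28.2 ± 5.96. *Mc4r*, the melanocortin 4 receptor, had 145 ± 17.5 and 181 ± 22.96 (log2 fold change 0.32, adjusted p = 0.539), and the iron transporter *Slc11a2* 802 ± 22.0 and 729 ± 41.3 (adjusted p = 0.546).

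In the list of interleukin 1, tumour necrosis factor and NF-kB genes, 17 of 22 were tested and 0 called, with a median log2 fold change of -0.06. *Tnfrsf1b*, a receptor for tumour necrosis factor found on microglia, had 74.6 to 101 normalized counts after vehicle and 38.9 to 64.3 after corticosterone (log2 fold change -0.68, adjusted p = 0.353 from edgeR). *Nfkbia*, the inhibitor of NF-kB that glucocorticoids induce in many cells, had 963, 559, 557 and 404 after vehicle and 850.0, 785, 880 and 612 after corticosterone. Its vehicle replicate 1 was above every corticosterone library, and the other 3 vehicle libraries were below all of them (log2 fold change 0.33, adjusted p = 0.587). The complement gene *C3* had 8.83 ± 2.63 and 15.7 ± 6.16 (log2 fold change 0.82, adjusted p = 0.545).

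Across these lists there were 184 genes other than *Lcn2*, of which 132 were tested and 1, *Fkbp5*, was called by edgeR. At an unadjusted p value under 0.05, 25 were higher and 10 lower, 26.5% of those tested beside 9.03% of all genes, but the lists were drawn up with results of these libraries known. By list, these were 4 of 6 acute-phase genes, all higher, 3 higher and 1 lower of 11 in the A1 list, 2 higher of 8 in the A2 list, 2 higher and 1 lower of 9 pan-reactive genes, 3 higher of 14 intermediate filament genes, 3 higher of 14 genes around CD44, 3 higher and 1 lower of 9 S100 and annexin A2 genes, 1 higher and 3 lower of 15 inhibitor and metalloproteinase genes, 2 higher of 14 genes for lipocalin 2 receptors and iron, 1 higher of 3 clade A3 serpins, and 0 of 6 C/EBP genes. In the inflammatory lists they were 2 higher and 2 lower of 15 (interleukin 6 family) and 1 higher and 2 lower of 17 (NF-kB). DESeq2, which called 0.374% of all genes, called *Lbp*, *Spp1* and *S100a16* as well as *Fkbp5*. With no filter on low counts, edgeR called these 4 and also *Adamts4* and *Mt2*, where 0.287% of all genes were called. Without corticosterone replicate 5, edgeR called 14 list genes higher and 9 lower of 133 tested, and 10.2% of all genes. Those higher included *Lbp*, *Cp*, *Emp1*, *Il6ra*, *Lifr*, *Synm*, *Ahnak*, *Anxa2*, *Spp1* and *Timp3*, and those lower *Tnfrsf1b*, *Plec*, *Bcan*, *Adamts4* and *S100a16*. The calls in these lists thus depended on the tool, the filter or the libraries kept. Of the 8 reactive glia genes tested beside *Lcn2*, 0 were called in any of these fits.

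**Figure D5:**
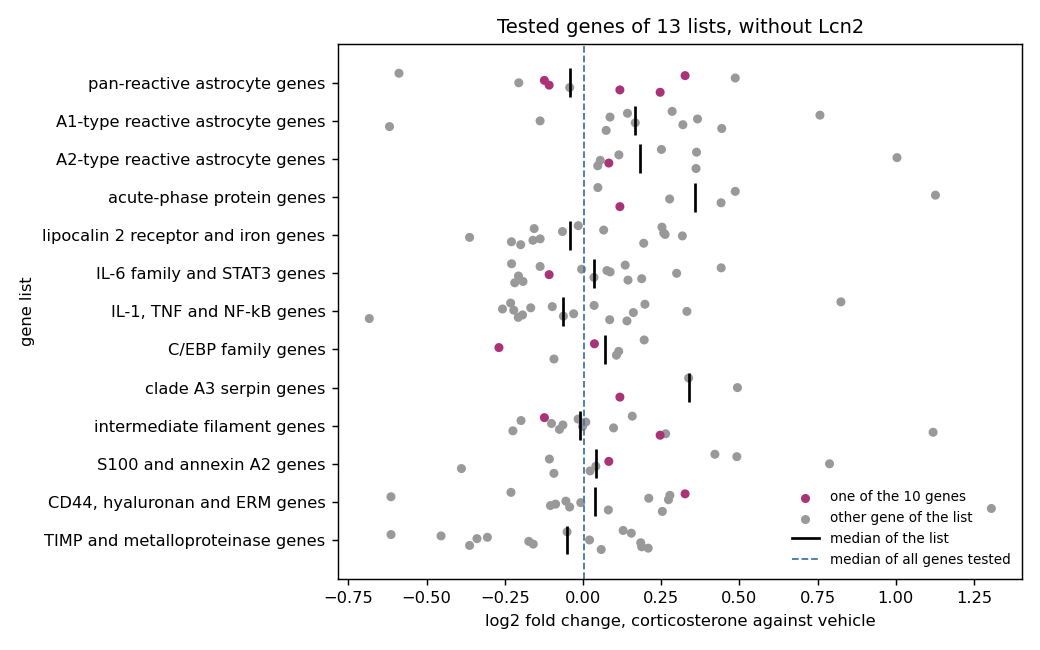
Log2 fold change of each tested gene in 13 lists, without *Lcn2*; points are genes, with those of the 10 in purple, thick black lines are the list medians and the dashed line is the median of all genes tested (0.0036). The medians lie between -0.06 (interleukin 1, tumour necrosis factor and NF-kB) and 0.36 (acute-phase proteins).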

How the data were processed

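RNA was measured in 8 libraries of ventral hippocampus, 4 per group, 1 mouse each. The authors aligned stranded 100-bp paired reads to mm10 (GSnap), obtained gene counts with HTSeq-count and deposited these raw, without normalization; the annotation release is not given in the sources used here. Rows that name no gene held 13.7% to 15.4% of reads and were left out. Symbols came from GENCODE M21 (GRCm38), in which 50462 of 50686 identifiers were found. All 8 columns were matched to their samples by title.

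Counts were normalized with TMM, filtered by edgeR's filterByExpr, and groups compared by the quasi-likelihood test (edgeR 4.0.16, R 4.3.3) with Benjamini-Hochberg adjustment over all genes. Normalized counts are scaled to the mean effective library size, and log2 CPM values use a prior count of 2. RPKM used the summed length of all annotated exons of a gene, so a gene with exons that few of its transcripts use comes out lower. For single genes an exact permutation test over the 70 assignments of libraries was added. Totals of 17492159 to 19931987 reads per library limit the precision of low genes such as *Lcn2* and *Timp1*. DESeq2 1.42.0, limma-voom (limma 3.58.1), other normalizations and filters, and libraries left out were alternatives. The tests were checked on simulated data.

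The genes and lists were chosen with earlier results of these data known. Named were the 10 genes, a set of partners chosen by role, any called gene of a list, the gene with the smallest p value in each direction of a list with at least 5 tested genes, and the 5 genes most like *Lcn2*; *Lcn2* has no test and was left out of the lists. Other genes are said to be named after their values were seen, or are markers. A further gene is not reported here.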

Additional observations from a re-analysis of the deposited data

Results flagged for a closer look

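Dixon's criterion was applied to 28 sets of 4 values (the 10 genes and 4 shares of reads, by group). In 4 of these 1 library stood apart, and by chance about 1.4 would. None of them was a gene. In corticosterone replicate 5, 86.3% of reads were on genes (84.6% to 84.8% in replicates 6 to 8) and 1.48% were ambiguous (1.25% to 1.28%). The ambiguous share of vehicle replicate 4 was 1.40%, while replicates 1 to 3 had 1.64% to 1.67%. Reads that were not aligned made up 6.35% in vehicle replicate 3 and 7.06% to 7.13% in the other vehicle libraries.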

How the results depend on the processing

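No paired analysis was possible because mice numbered 1 to 4 received vehicle and those numbered 5 to 8 corticosterone. With edgeR, 1 gene (*Fkbp5*, no longer called in 7 of 15 alternatives, though at a log2 fold change of 0.69 to 0.77 in these) was differentially expressed, and 1446 had an unadjusted p value under 0.05. The number was 63 with DESeq2, 79 with no filter on low counts and 0 with at least 10 counts in every sample (1330 at an unadjusted p value under 0.05). With 1 library left out it was between 0 and 1651, the highest without corticosterone replicate 5 and next 19 without vehicle replicate 1; without both of these it was 1103. Of the reactive glia genes other than *Lcn2*, 0 were called in the fit reported and in each of the 15 alternatives. With 1 library left out, the log2 fold change of *Cebpb* lay between -0.17 and 0.23. It changed direction, from 0.04 to -0.17 without vehicle replicate 4, -0.17 without corticosterone replicate 5, -0.11 without corticosterone replicate 7 and -0.18 without vehicle replicate 1 and corticosterone replicate 5; the cause was not tested. *Lcn2* could not be fitted with at least 10 counts in every sample. Its log2 fold change was 2.42 with DESeq2, 2.39 with limma-voom and 3.07 without vehicle replicate 1 and corticosterone replicate 5, and its difference in mean log2 CPM was 2.23 with a prior count of 2 and 2.41 with 0.5. With Spearman's rho in place of Pearson's r, 0 of the 5 genes most like *Lcn2* were the same, and the highest rho was 1. *Timp1* was fitted with DESeq2 and with no filter only.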
